A study of Mus musculus with 6 samples.

Results

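Ikaros family zinc finger proteins, E proteins and ID proteins are transcriptional regulators that act together at the entry into the lymphoid lineages. The account below follows 10 of their genes, namely Ikzf1, Ikzf2, Ikzf3 and Ikzf5 of the Ikaros family, the E protein genes Tcf3, Tcf4 and Tcf12, and the ID genes Id1, Id2 and Id3. The genes were listed by symbol and make up 10 of the 45706 genes in the deposited count table. All 10 were found in the table, and 9 were abundant enough to be tested.

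Expression was measured by RNA-seq in the LSK compartment (Lin-, Sca-1+ and c-Kit+ cells) of mouse bone marrow, which holds hematopoietic stem cells and multipotential progenitors, from 1 library per mouse. The question was which genes change first after deletion of Setd1b, a methyltransferase of histone H3 lysine 4. The 3 Ctrl mice (AI03, AI54 and AI56) carried 1 conditional Setd1b allele and 1 wild-type allele (FD/+), and the 3 cKO mice (AI02, AI55 and AH74) carried 2 conditional alleles (FD/FD). All 6 were male C57BL/6 mice (C57BL/6J in the study's methods) with 1 copy of Rosa26-Cre-ERT2 (RC/+), and all received tamoxifen. The dose was 4.5 mg per day by gavage for 4 days and, after a pause of 3 days, for another 2 days, and the marrow was taken 3 days after the last dose. This schedule is that of the labels, and the study's methods give another number of doses. The mice were littermates, but which of them share a litter was not given. They were 16 weeks old, except for AH74, which was 17 weeks old. The Cre is expressed in nearly all cell types and is present in the controls too, so that the comparison is between loss of 1 and of 2 alleles in the whole animal and not between wild-type and mutant blood cells. Total counts per library ranged from 13003573 to 21277519, with a median of 14889023.5.

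Ikaros proteins bind DNA through zinc fingers and recruit the NuRD and Sin3 chromatin complexes, and mice without Ikzf1 lack B cells. E proteins are basic helix-loop-helix factors that bind E-box motifs as dimers and switch on genes for antigen receptor assembly and for the lymphoid lineages. ID proteins have the helix-loop-helix but no DNA-binding region, pair with E proteins and keep them off DNA, and their genes are classical targets of BMP and TGF-beta signaling.

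The targeted gene was looked at first. Setd1b (chr5:123142193-123168629, GRCm38) was measured at 221, 194 and 223 CPM (counts scaled by the size of the library) in the Ctrl libraries AI03, AI54 and AI56 and at 272, 288 and 314 CPM in the libraries labelled cKO (AI02, AI55 and AH74). The groups did not overlap, and the count was higher in the libraries labelled cKO, with a log2 fold change of 0.46 (SE 0.073, adjusted p = 0.00146, edgeR quasi-likelihood test with Benjamini-Hochberg adjustment over all genes tested). The deposited count is summed over 12068 exon bases, most of which lie outside the deleted part, so it does not check the deletion. The direction of this total count thus leaves the label unchecked. Genotype is taken from the labels here, and the libraries are therefore called libraries labelled cKO below. By the study's qRT-PCR on the same LSK samples, Mpo, Klf1, Gata1 and Cebpa were lower in cKO. These genes were lower in the libraries labelled cKO here too (log2 fold changes -2.89, -2.07, -0.64 and -0.68). Every log2 fold change is the libraries labelled cKO minus the Ctrl libraries, with 3 libraries in each group.

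The sorted identity was checked with the genes of the gate. Kit was at 514, 395 and 446 CPM in Ctrl and at 438, 466 and 416 CPM in the libraries labelled cKO, and Ly6a, which encodes Sca-1, lay between 35.8 and 56.3 CPM in all 6. Neither differed past the threshold (log2 fold change -0.04, adjusted p = 0.84, and -0.23, adjusted p = 0.33, edgeR). Cd34 did not either, at 0.01 (adjusted p = 0.95, edgeR).

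None of the 9 tested genes passed an adjusted p of 0.05 with edgeR, where 7.67% of the 15184 genes tested did, 3.79% lower and 3.88% higher in the libraries labelled cKO. DESeq2 also called 0 of them. At an unadjusted p under 0.05 there were 3, namely Id2 and Tcf3, which were lower, and Tcf12, which was higher. Of all 15184 genes tested, 3470 had an unadjusted p under 0.05 with edgeR. The groups did not overlap for 2 of the 9, Id2 and Tcf12, beside 27.3% of all genes tested. The fitted log2 fold change was below 0 for 7 and above 0 for 2, with a median of -0.10 beside a median of 0.00 over all genes tested. For the 6 genes with a mean of at least 10 CPM in Ctrl, the 95% intervals of the log2 fold change reached from -0.343 to 0.327 at most. These bounds are those of this fit, without adjustment over genes, and the estimates moved with the processing. With the length trend removed, Tcf4 was at -0.20, below its interval of -0.18 to 0.15 in this fit.

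**Figure D1:**
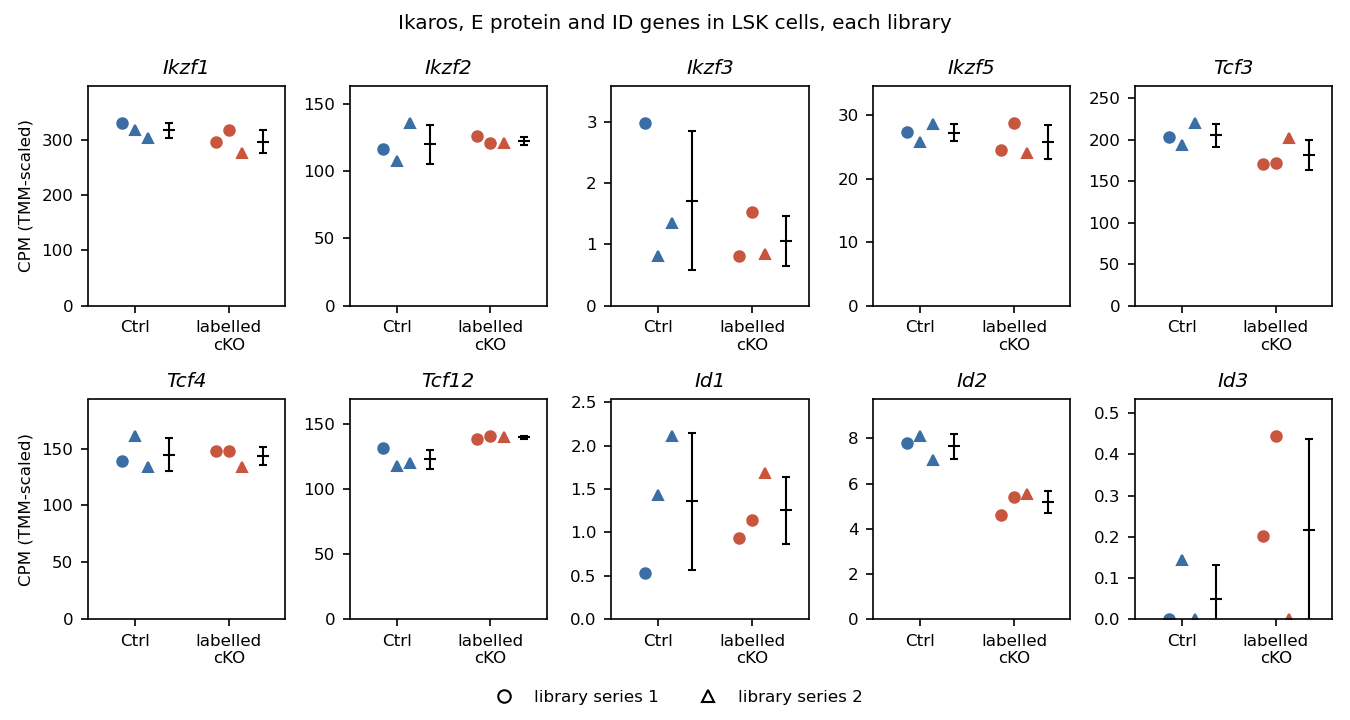
Expression of the 10 genes in each library, in CPM scaled by the trimmed mean of M-values (TMM), on axes that start at 0; points are libraries, circles and triangles are the 2 series of library numbers, and the bar beside each group is the mean with 1 SD. Id2 and Tcf12 are the genes whose 3 libraries labelled cKO lie all on one side of the 3 Ctrl libraries, Id2 lower and Tcf12 higher.

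The start regions of 4 of these genes are given because they carry the results, Ikzf1 as the most abundant member and Id2, Tcf12 and Tcf3 as the members with the smallest p-values. Promoter windows (250 bases before to 50 bases after the start, RefSeq on GRCm38.p6) were at hand for 6 of the 10 genes, and other entries were not used here. CpG dinucleotides were counted because complexes of the Set1 type are known to be recruited to unmethylated CpG-rich promoters. The sequences are the part of a window before the start that no annotated exon covers, 5′ to 3′ on the strand of the gene, with CpG in capitals.
Ikzf1, chr11:11685675-11685924, plus strand: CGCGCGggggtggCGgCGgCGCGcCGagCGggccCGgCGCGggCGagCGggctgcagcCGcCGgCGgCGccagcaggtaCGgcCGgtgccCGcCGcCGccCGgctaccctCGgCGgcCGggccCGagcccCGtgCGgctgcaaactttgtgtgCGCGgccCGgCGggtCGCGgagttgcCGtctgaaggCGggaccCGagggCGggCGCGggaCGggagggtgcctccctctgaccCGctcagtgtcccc
Tcf3, chr10:80433648-80433885, minus strand: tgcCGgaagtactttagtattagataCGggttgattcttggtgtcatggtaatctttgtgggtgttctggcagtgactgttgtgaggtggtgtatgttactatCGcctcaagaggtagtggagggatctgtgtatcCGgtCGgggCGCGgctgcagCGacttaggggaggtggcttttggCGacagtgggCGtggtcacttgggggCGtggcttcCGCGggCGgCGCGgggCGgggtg
Tcf12, chr9:72111203-72111451, minus strand: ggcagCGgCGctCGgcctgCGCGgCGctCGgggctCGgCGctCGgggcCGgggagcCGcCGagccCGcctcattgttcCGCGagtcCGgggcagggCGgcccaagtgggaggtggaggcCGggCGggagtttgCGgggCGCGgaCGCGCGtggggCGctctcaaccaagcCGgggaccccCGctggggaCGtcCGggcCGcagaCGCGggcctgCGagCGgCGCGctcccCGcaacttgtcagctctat
Id2, chr12:25096254-25096342, minus strand: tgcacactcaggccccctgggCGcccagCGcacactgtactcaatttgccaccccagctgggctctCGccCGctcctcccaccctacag

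Over the whole 300-base windows, Ikzf1 held 52 CpG at this start, which put it at the 99.4th percentile of 32817 windows, and Tcf12 held 45 (98.1th percentile). A further Tcf12 window, beginning at position 72111770, held 41. Tcf3 held 25 (81.6th percentile) and Id2 held 21 (75.2th percentile), beside a median of 7 and quartiles of 3 and 20 over all windows. Ikzf5 held 27 and Id3 held 19. Not every start is of this kind, since a second Ikzf1 start further into the gene held 2 and another Tcf12 window, far inside the gene, held 0. All 4 printed starts thus lie above the median, those of the member that was higher without overlap, of the member that was lower without overlap and of 2 whose groups overlapped. The E-box CAGCTG, which reads the same on both strands, was found once each in the windows of Id2, Ikzf5 and the further Tcf12 window, and 16.3% of all windows held it. The E-box CACCTG, searched on both strands, was in none of the members' windows and in 20.2% of all windows. The letters GGGAA, the core of the Ikaros motif, searched on both strands, were found in the second Ikzf1 window and in that of Ikzf5, beside 62.7% of all windows. These are matches of letters, not measured binding.

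Of the Ikaros family, Ikzf1 (ENSMUSG00000018654, chr11:11685003-11772926) encodes Ikaros itself, the founding member and a regulator of lymphoid priming. Its level was 331, 317 and 303 CPM in Ctrl and 296, 317 and 275 CPM in the libraries labelled cKO. The groups overlapped, and the log2 fold change was -0.10 (SE 0.067, 95% interval -0.24 to 0.05, adjusted p = 0.43, edgeR).

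Ikzf2 (ENSMUSG00000025997, chr1:69531214-69687245) encodes Helios, known from regulatory T cells and also expressed in stem cells. It was measured at 116, 107 and 136 CPM in Ctrl and at 126, 121 and 120 CPM in the libraries labelled cKO, which lay inside the Ctrl range. The log2 fold change was 0.03 (95% interval -0.14 to 0.20, adjusted p = 0.86, edgeR), and its sign turned with the processing and without 1 library. Ikzf5 (ENSMUSG00000040167, chr7:131388652-131410521) encodes Pegasus, a more distant member. Its values were 27.4, 25.8 and 28.6 CPM in Ctrl and 24.6, 28.8 and 24.0 CPM in the libraries labelled cKO. These groups overlapped too, with a log2 fold change of -0.08 (95% interval -0.31 to 0.15, adjusted p = 0.73, edgeR).

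Ikzf3 (ENSMUSG00000018168, chr11:98464902-98546031) encodes Aiolos, which belongs to later B cell stages, and it was near the limit of what these libraries measure. It was counted 39, 17 and 21 times in Ctrl and 12, 24 and 12 times in the libraries labelled cKO, or 2.98, 0.810 and 1.34 CPM against 0.804, 1.52 and 0.842 CPM. The Ctrl library AI03 was the highest and the other 5 lay close together. The fitted log2 fold change of -0.64 had an interval from -1.72 to 0.43 (adjusted p = 0.50, edgeR) and became -0.0031 without AI03.

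A member of the family that was not among the 10 genes, Ikzf4, which encodes Eos, was higher in the libraries labelled cKO. It was counted 6, 19 and 9 times in Ctrl and 44, 35 and 35 times in the libraries labelled cKO, or 0.459, 0.906 and 0.576 CPM against 2.95, 2.22 and 2.45 CPM. All 3 libraries labelled cKO lay above all Ctrl libraries, with a log2 fold change of 1.92 (SE 0.40, adjusted p = 0.00796, edgeR), and the gene stayed past the threshold in all 13 alternatives in which it was tested. Its level remained low beside that of Ikzf1.

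Of the E proteins, Tcf3 (ENSMUSG00000020167, chr10:80409514-80433647) encodes E12 and E47, the forms that B cell development depends on most. Its level was 203, 193 and 221 CPM in Ctrl and 171, 172 and 202 CPM in the libraries labelled cKO. AI02 and AI55 lay below all Ctrl libraries, whereas AH74 lay among them. The log2 fold change was -0.18 (SE 0.077, 95% interval -0.34 to -0.01) and did not pass after adjustment (adjusted p = 0.18, edgeR). Without AH74 it was -0.27 (adjusted p = 0.0549, edgeR). Within the 2 series of library numbers it was -0.24 and -0.03. Series 1 held AI03 beside AI02 and AI55, and series 2 held AI54 and AI56 beside AH74. Each difference within a series thus rests on a single library of 1 genotype.

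Tcf12 (ENSMUSG00000032228, chr9:71842688-72111871) encodes HEB, which is best known from T cell development and from complexes with Tal1 and Lmo2. It was measured at 131, 117 and 120 CPM in Ctrl and at 139, 141 and 140 CPM in the libraries labelled cKO. The groups did not overlap, although AI03 came close to the lowest library labelled cKO. The log2 fold change of 0.19 (SE 0.065, 95% interval 0.05 to 0.33) missed the threshold (adjusted p = 0.099, edgeR). Once a trend with gene length was taken out of each library, it was 0.08 (adjusted p = 0.51, edgeR). Within the 2 series it was 0.09 and 0.24.

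Tcf4 (ENSMUSG00000053477) encodes E2-2, the E protein that plasmacytoid dendritic cells require. It was measured at 139, 161 and 134 CPM in Ctrl and at 148, 148 and 134 CPM in the libraries labelled cKO. The groups overlapped throughout, and the log2 fold change was -0.01 (95% interval -0.18 to 0.15, adjusted p = 0.94, edgeR). With the length trend removed it was -0.20 (adjusted p = 0.16, edgeR).

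Among the ID genes, Id2 (ENSMUSG00000020644, chr12:25093801-25096092) is the one that innate lymphoid and NK cells depend on, and it was the most abundant of the 3 in these cells. It was counted 102, 170 and 110 times in Ctrl and 69, 85 and 79 times in the libraries labelled cKO, or 7.81, 8.10 and 7.04 CPM against 4.62, 5.40 and 5.54 CPM. All libraries labelled cKO lay below all Ctrl libraries. The log2 fold change was -0.56 (SE 0.19, 95% interval -0.97 to -0.15) and missed the threshold (adjusted p = 0.094, edgeR). Within the 2 series, each with a single library of 1 genotype, it was -0.63 and -0.44. Over all 14 alternatives it stayed between -0.62 and -0.48 with adjusted p between 0.079 and 0.23 (edgeR or DESeq2). In sorted bulk cells, fewer cells that express a gene and less RNA per cell cannot be told apart.

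Id1 (ENSMUSG00000042745, chr2:152736251-152737410), a direct target of BMP signaling, was counted 7, 30 and 33 times in Ctrl and 14, 18 and 24 times in the libraries labelled cKO. In CPM this was 0.536, 1.43 and 2.11 against 0.938, 1.14 and 1.68, so that the libraries labelled cKO lay inside the Ctrl range. The interval of its log2 fold change of -0.14 reached from -1.15 to 0.87 (adjusted p = 0.90, edgeR), and a difference of up to that size was not detectable at this depth. Id3 (ENSMUSG00000007872, chr4:136143497-136145755), which restrains B and T lymphocyte development, was counted 0, 3 and 0 times in Ctrl and 3, 7 and 0 times in the libraries labelled cKO, and was too low to be tested. Id4, the remaining ID gene of the mouse and not among the 10 genes, was counted 0, 3 and 1 times in Ctrl and 0 times in each library labelled cKO.

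**Figure D2:**
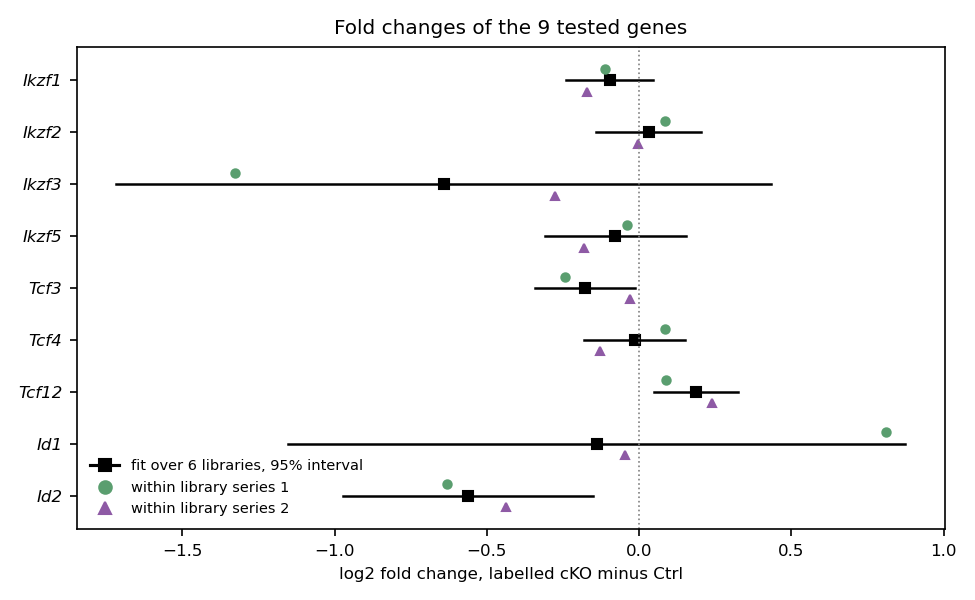
Log2 fold changes (libraries labelled cKO minus Ctrl) of the 9 tested genes, with squares and lines for the fit over 6 libraries and its 95% interval, and with circles and triangles for the differences within each of the 2 series of library numbers. The intervals of Id2, Tcf3 and Tcf12 leave out 0 before adjustment, and those of Ikzf3 and Id1 are the widest. Each series has a single library of 1 genotype.

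To compare levels between genes, CPM were divided by the exon length of the gene model in kilobases. In Ctrl, Ikzf1 led with 54.8 ± 2.42 CPM per kb (mean ± SD, n = 3), followed by Tcf3 with 50.9 ± 3.44, and the ranges of these 2 overlapped. Ikzf2 (10.3 ± 1.26), Tcf12 (7.92 ± 0.469) and Id2 (6.02 ± 0.433) came next in CPM per kb, without overlap between neighbours. Id2, Ikzf5 (5.58 ± 0.284) and Tcf4 (5.29 ± 0.531) could not be put in order, since neighbouring ranges overlapped. Id1 (1.17 ± 0.681), Ikzf3 (0.196 ± 0.129) and Id3 (0.0266 ± 0.0461) followed without overlap. In the libraries labelled cKO, Ikzf3 (0.121 ± 0.0463) and Id3 (0.120 ± 0.124) overlapped and could not be put in order. The other change in the order was that of Id2, which at 4.09 ± 0.389 CPM per kb lay below Ikzf5 (5.28 ± 0.542) and Tcf4 (5.24 ± 0.286) without overlap. The level of Tcf4 per kb depends on a long gene model of 27335 exon bases, of which a transcript uses a part.

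The summed level of Tcf3, Tcf4 and Tcf12 was 63.8, 61.3 and 67.3 CPM per kb in Ctrl and 56.7, 57.0 and 64.1 CPM per kb in the libraries labelled cKO, with overlap. The summed level of Id1, Id2 and Id3 was 6.61, 7.69 and 7.36 CPM per kb in Ctrl and 4.56, 5.49 and 5.81 CPM per kb in the libraries labelled cKO, without overlap. Id2 made up most of the second sum. The ID sum as a percentage of the E protein sum was 10.4, 12.6 and 10.9% in Ctrl and 8.05, 9.62 and 9.08% in the libraries labelled cKO. The means were 11.3 ± 1.14% and 8.92 ± 0.798% (SD, n = 3), and the log2 ratio of the means was -0.34, given as a description with no test. The groups did not overlap, and leaving out 1 library at a time kept the log2 ratio between -0.40 and -0.26. The ratio was not computed with the length trend removed.

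**Figure D3:**
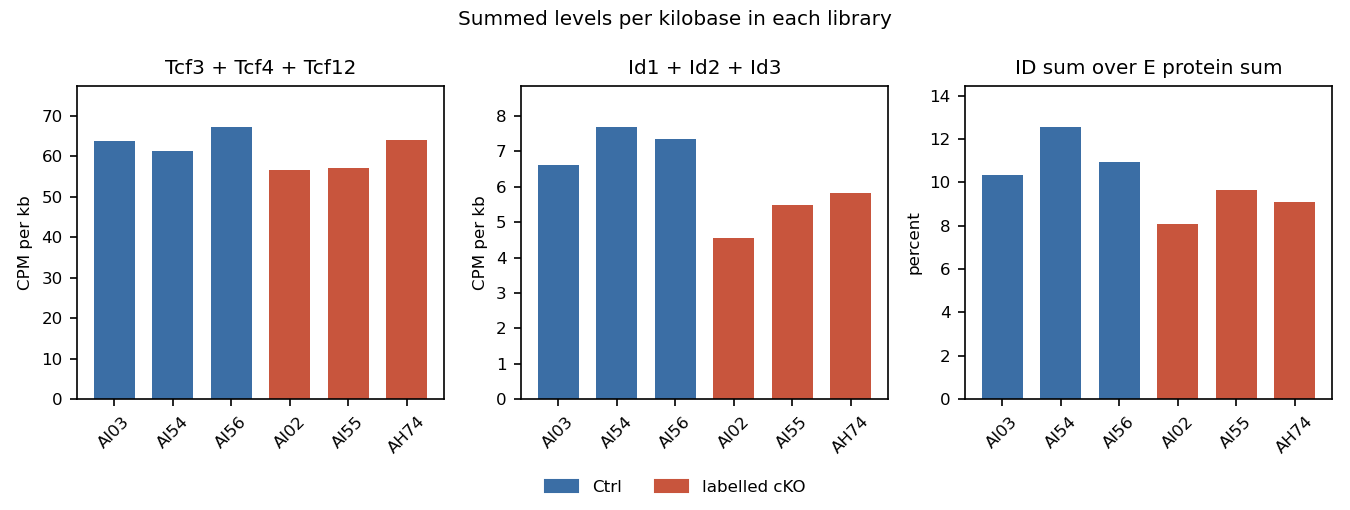
Summed levels per library in CPM per kb of exon length for the 3 E protein genes and the 3 ID genes, and the second sum as a percentage of the first, as bars from 0, one per mouse. The E protein sums of the groups overlap, whereas all 3 ID sums of the libraries labelled cKO (4.56 to 5.81 CPM per kb) lie below those of Ctrl (6.61 to 7.69 CPM per kb).

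Within the E protein sum, the share of Tcf12 separated the groups. It made up 13.2, 12.3 and 11.5% of the sum in Ctrl and 15.7, 15.9 and 14.1% in the libraries labelled cKO, without overlap (means 12.4 ± 0.861% and 15.3 ± 0.989%, SD, n = 3). Tcf3 made up 79.3 ± 1.66% and 75.8 ± 2.05% (SD, n = 3). Of the summed level of the 4 Ikaros family genes, the share of Ikzf1 was 77.3 ± 2.24% (SD, n = 3) for Ctrl beside 76.2 ± 0.638% for the libraries labelled cKO. These shares are descriptions without a test. They compare genes of different length and were not computed with the length trend removed, where the log2 fold change was 0.08 for Tcf12 and -0.20 for Tcf4.

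For the 3 members with the smallest p-values, the genes with the most similar pattern were sought by Pearson correlation of log2 CPM over the 6 libraries. Nearest to Id2 were H2-Ob (r = 0.997), Clec2d (r = 0.996) and Thg1l (r = 0.990). Nearest to Tcf12 were Gm9905 (r = 0.997), Nfya (r = 0.997) and H2-Q4 (r = 0.995), and nearest to Tcf3 were Mfsd5 (r = 0.997), Furin (r = 0.996) and Pheta1 (r = 0.992). With 6 libraries and 15184 genes to choose from, values of this size describe the pattern and carry no test, and the libraries share their group and their series.

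The proteins that E proteins and Ikaros work with were called for 1 of 8 and 2 of 15 tested genes of 2 lists, beside 7.67% of all genes tested. These 2 lists and those below were chosen with earlier results of these data known. Their counts beside the share of all genes tested are descriptions and no test of enrichment. Of 9 listed partners and corepressors of E proteins, 8 were tested, 1 was lower, none was higher with edgeR, and 2 had an unadjusted p under 0.05. The median log2 fold change was -0.07. The one that fell was Lmo4, a LIM-only adaptor, at 46.7, 57.4 and 52.7 CPM in Ctrl and 36.5, 36.2 and 35.9 CPM in the libraries labelled cKO (log2 fold change -0.53, SE 0.092, adjusted p = 0.00237, edgeR). Lmo2, the adaptor of the stem cell complex of Tal1, Ldb1 and E proteins, was at 427, 435 and 459 CPM against 412, 386 and 383 CPM. Its groups did not overlap, but the log2 fold change of -0.16 did not pass (adjusted p = 0.13, edgeR), nor did that of Lyl1 (-0.14, adjusted p = 0.35) or of Cbfa2t3 (0.12, adjusted p = 0.31).

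All 15 listed subunits of the NuRD and Sin3 complexes were tested, with 1 higher, 1 lower and a median log2 fold change of -0.02. Chd3, a remodeling ATPase of NuRD, was higher, at 221, 216 and 247 CPM in Ctrl and 297, 284 and 330 CPM in the libraries labelled cKO (log2 fold change 0.41, SE 0.073, adjusted p = 0.00283, edgeR). Mbd2, the methyl-CpG binding subunit, was lower, at 142, 137 and 132 CPM against 116, 114 and 96.2 CPM (log2 fold change -0.33, SE 0.076, adjusted p = 0.0144, edgeR). Chd4, the more abundant ATPase, had a log2 fold change of 0.06 (95% interval -0.08 to 0.20, adjusted p = 0.64, edgeR).

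Other transcription factors of the lymphoid lineages were lower for 3 and higher for 0 of 19 tested of 22 listed, beside 3.79% lower among all genes tested. At an unadjusted p under 0.05 with edgeR there were 8, in both directions, beside 3470 of all 15184 genes tested. Their median log2 fold change was -0.09. Irf8, a factor of dendritic, monocyte and B cell precursors, was at 112, 102 and 90.4 CPM in Ctrl and 67.1, 63.6 and 46.8 CPM in the libraries labelled cKO (log2 fold change -0.78, SE 0.114, adjusted p = 0.000756, edgeR). Zbtb16, the PLZF factor of innate-like lymphocytes, was at 32.9, 23.4 and 24.9 CPM against 16.8, 16.1 and 20.6 CPM (log2 fold change -0.60, SE 0.144, adjusted p = 0.0189, edgeR). Both were without overlap. Tcf7, the TCF-1 factor of early T cells, also passed (log2 fold change -0.95, SE 0.249, adjusted p = 0.0314, edgeR), but its groups overlapped at 36.9, 24.1 and 14.5 CPM against 10.1, 15.6 and 13.2 CPM. Bcl11b, the T cell commitment factor, missed the threshold at a log2 fold change of -1.55 (95% interval -2.59 to -0.52, adjusted p = 0.066, edgeR). Bach2 and Foxo1, both regulators of B cell genes, missed it from the other side, without overlap, at 0.46 (95% interval 0.14 to 0.78 on the log2 scale, adjusted p = 0.074) and 0.44 (0.14 to 0.75, adjusted p = 0.077, both edgeR). The count of lower factors was 1 without AI03, 1 without AI02 and 1 without AI55, and 7 with the length trend removed. Ebf1 and Pax5, which follow Tcf3 in the B lineage, were at most 1.86 and 1.29 CPM in any library.

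Genes that textbooks place under the control of E proteins or Ikaros in lymphoid progenitors were lower for 5 and higher for 0 of 15 tested of 18 listed, beside 3.79% lower among all genes tested. Their median log2 fold change was -0.66. With the list chosen after earlier results of these data were known, these values describe it and test no enrichment. Dntt, the terminal transferase that adds bases at antigen receptor joints, was at 271, 549 and 219 CPM in Ctrl and 3.62, 5.97 and 8.42 CPM in the libraries labelled cKO (log2 fold change -5.86, SE 0.334, adjusted p = 4.94e-08, edgeR). Every library labelled cKO lay far below every Ctrl library, and within the 2 series the difference was -5.83 and -5.34 on the log2 scale. Ighm, the heavy chain of IgM, was at 302, 431 and 194 CPM against 89.4, 121 and 70.4 CPM (log2 fold change -1.72, SE 0.220, adjusted p = 0.000207, edgeR). Its groups did not overlap either.

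Il7r, the receptor subunit for interleukin 7, was at 9.03, 9.72 and 3.46 CPM in Ctrl and 2.68, 2.73 and 2.88 CPM in the libraries labelled cKO (log2 fold change -1.42, SE 0.325, adjusted p = 0.0138, edgeR). Vpreb1, a chain of the pre-B cell receptor, passed at a level of at most 1.91 CPM (log2 fold change -1.99, SE 0.514, adjusted p = 0.0283, edgeR). Not all listed genes were lower. Flt3, the receptor that marks lymphoid-primed progenitors, was the most abundant of them over all 6 libraries, though below Dntt and Ighm in the mean of Ctrl, and was at 275, 280 and 192 CPM against 177, 221 and 203 CPM, with overlap (log2 fold change -0.31, adjusted p = 0.12, edgeR). The fitted change was -0.19 on the log2 scale for Rag1 (adjusted p = 0.79, edgeR), 0.13 for Notch1 (adjusted p = 0.59) and 0.98, without overlap, for Blnk, an adaptor of B cell receptor signaling (adjusted p = 0.052). Ptcra was counted 0 times in every library. The count of lower target genes was 3 without AI54 and 3 without AI55. Within each series, where 1 genotype has a single library, all genes named here as past the threshold kept the sign of the fit over 6 libraries. This held for those of the partner, lymphoid, target and pathway lists and for Ikzf4.

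**Figure D4:**
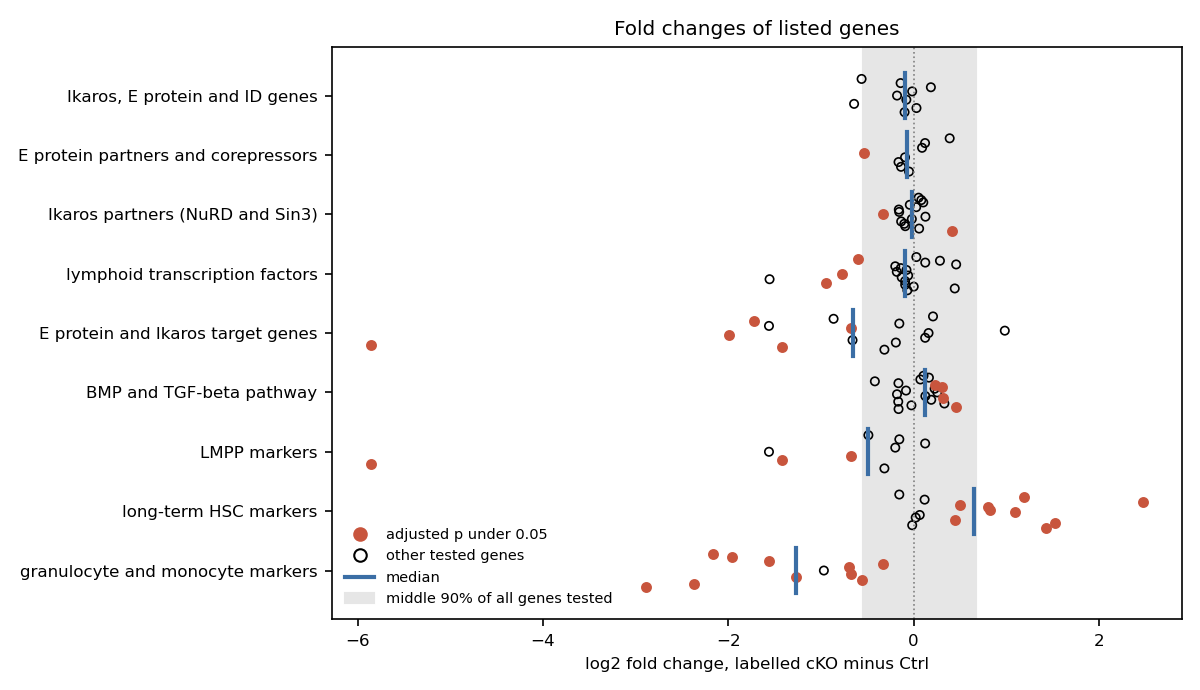
Log2 fold changes (libraries labelled cKO minus Ctrl) of the tested genes of 9 lists; each point is a gene, filled where the adjusted p was under 0.05 (edgeR), the upright bar is the median of the list and the grey band holds the middle 90% of all genes tested. The medians of the Ikaros, E protein and ID genes (-0.10) and of the partner lists (-0.07 and -0.02) lie near 0, that of the target genes (-0.66) lies to the left, and that of the long-term HSC markers (0.65) to the right. The lists were chosen with earlier results of these data known.

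The BMP and TGF-beta pathway, which acts upstream of the ID genes, had 4 genes higher and 0 lower of 19 tested of 25 listed (median log2 fold change 0.13), beside 3.88% higher among all genes tested. Of the receptors, Bmpr2 was at 81.8, 78.1 and 88.0 CPM in Ctrl and 113, 111 and 117 CPM in the libraries labelled cKO (log2 fold change 0.46, SE 0.069, adjusted p = 0.000867, edgeR). Tgfbr2 was higher by 0.32 on the log2 scale (adjusted p = 0.035, edgeR). Of the signal transducers, Smad5, which responds to BMP receptors, was higher by 0.23 on the log2 scale (adjusted p = 0.0406, edgeR), and Smad4, the partner that all share, by 0.30 (adjusted p = 0.0415, edgeR). None of these 4 genes overlapped between the groups. Smad7, an inhibitor that the pathway itself induces, had a log2 fold change of -0.42 (95% interval -0.75 to -0.08, adjusted p = 0.12, edgeR). The type I receptor Bmpr1b and Smad9 were at 0 in every library. The ligand Tgfb1 was the most abundant gene of the list, at 276, 293 and 300 CPM against 256, 260 and 261 CPM (log2 fold change -0.16, adjusted p = 0.12, edgeR). The count of 4 fell to 2 with the series as a covariate, to 2 with the length trend removed, to 1 without AI56, without AI02 or without AI55, and to 2 without AH74.

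The make-up of the sorted cells was described with marker genes, since the genes above differ between stages of the LSK compartment. Of 9 markers of lymphoid-primed progenitors (LMPPs), 3 were lower and 0 higher (among them Dntt and Il7r, median log2 fold change -0.49), but 7 of the 9 are also in the list of target genes, so that the 2 counts are not separate. Their summed level was 1415, 1797 and 1237 CPM in Ctrl and 885, 1016 and 963 CPM in the libraries labelled cKO. Of 14 markers of long-term HSCs, 9 were higher and 0 lower, with a median log2 fold change of 0.65. They included Fgd5 (1.53, adjusted p = 2.72e-06), Procr (1.43, adjusted p = 0.000357), Esam (1.19, adjusted p = 0.0017) and Pdzk1ip1 (1.10, adjusted p = 0.0017, all edgeR). Meis1, the most abundant of these markers, was at 0.02 on the log2 scale (adjusted p = 0.88, edgeR). The study states, without showing the data, that the make-up of the LSK compartment was largely similar between genotypes at this time. Its qRT-PCR on sorted cells found Klf1 lower in long-term HSCs, Mpo in multipotential progenitors and Ighm in LMPPs of cKO mice. The part of any shift in make-up in the values of Id2, Tcf3 and Tcf12, and in those of the target genes, was not tested in these libraries.

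Myeloid and erythroid genes were lower in the libraries labelled cKO as well. Of 11 granulocyte and monocyte markers, 10 were lower (median log2 fold change -1.27), and their summed level was 3653, 3047 and 3576 CPM in Ctrl against 917, 727 and 624 CPM in the libraries labelled cKO. Mpo, the myeloperoxidase gene, was the most abundant (log2 fold change -2.89, adjusted p = 1.58e-08, edgeR). Of 8 erythroid markers, 6 were tested and 4 were lower (median -0.67), among them Car1 (-5.72, adjusted p = 5.58e-10) and Klf1 (-2.07, adjusted p = 2.08e-05, both edgeR), with summed levels of 268, 257 and 271 CPM against 119, 139 and 138 CPM. Tfrc was the most abundant of them.

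Cells outside the gate that use these factors were looked for in the same way. Of 11 NK and innate lymphoid markers, 7 were tested, 3 were lower and 0 higher, and their median log2 fold change was -0.85. Their summed level was 101, 85.6 and 100.2 CPM in Ctrl and 50.1, 48.9 and 41.0 CPM in the libraries labelled cKO, and was thus lower in the same libraries as Id2. The 3 were Il1rl1 (-1.73, adjusted p = 8.32e-06), Gzmb (-4.50, adjusted p = 4.67e-05) and Nkg7 (-0.85, adjusted p = 0.000822, all edgeR), of which Nkg7 was the most abundant. Nkg7 and Il1rl1 made up most of the summed level in every library. Whether these genes mark NK or innate lymphoid cells in this compartment was not tested. Eomes (-0.88, adjusted p = 0.35), Rora (-0.37, adjusted p = 0.37) and Klrd1 (-0.50, adjusted p = 0.73, all edgeR) did not pass, and their groups overlapped. The defining NK marker Ncr1 was low and not tested, but was counted 17, 18 and 8 times in Ctrl and 1, 1 and 3 times in the libraries labelled cKO (1.30, 0.858 and 0.512 CPM against 0.0670, 0.0635 and 0.210 CPM), and so without overlap in the direction of Id2. Gzma, likewise not tested, was counted 24, 11 and 16 times against 5, 8 and 3 times, and Tbx21 was at most 0.306 CPM in any library. Not all markers lay lower. Klrb1c, which encodes the NK cell antigen of the depletion, was counted 30, 9 and 19 times in Ctrl and 35, 38 and 18 times in the libraries labelled cKO (log2 fold change 0.68, adjusted p = 0.47, edgeR), and Prf1 6, 4 and 12 times against 12, 6 and 4 times, both with overlap. The antibodies used to deplete lineage-positive cells included one against the Klrb1c product. The part of any such cells in the level of Id2 was not tested here.

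B cell markers had 2 of 8 genes tested and 0 called with edgeR or at an unadjusted p under 0.05. Cd79b made up most of their summed level of 17.0 to 22.1 CPM, whereas Ms4a1 was at most 0.0635 CPM and Cd79a at most 0.286 CPM. T cell markers had 4 of 9 tested and 0 called with edgeR (2 at an unadjusted p under 0.05), with Lck the most abundant, a summed level of 25.7 to 38.9 CPM, Cd3e at most 0.0635 CPM and Cd8b1 at 0 in every library. Plasma cell markers had 3 of 6 tested and 1 lower, the joining chain gene Jchain (-2.80, adjusted p = 0.00439, edgeR), at a summed level of 9.12 to 23.4 CPM with Sdc1 the most abundant. Of 10 markers of plasmacytoid dendritic cells, which depend on Tcf4, 7 were tested and 1 was lower, Irf8. Their summed level was 282, 280 and 233 CPM against 224, 237 and 213 CPM, with Runx2 the most abundant and Irf8 next to it in Ctrl, Siglech at most 0.704 CPM and Klk1 at 0. Of 10 endothelial and stromal markers, 6 were tested, 2 were higher (Pdgfrb at 0.83 and Kdr at 1.90 on the log2 scale) and 3 were lower (Cxcl12 at -2.08, Pecam1 at -0.33 and Col1a2 at -1.27), with Pecam1 the most abundant and the defining gene Cdh5 at most 0.737 CPM.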

How the data were processed

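LSK cells were sorted from the bone marrow of 3 Ctrl and 3 cKO mice. Reads were aligned by the authors with GSNAP to mm10 and counted per gene with featureCounts 1.5.0 on Ensembl 81 gene models, in the strand of the gene (versions per the submitters' processing notes). The deposited values are raw counts, not normalized or pooled. Total counts of 13003573 to 21277519 per library set the precision of low genes, and intervals cover these 6 libraries only.

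Gene symbols were taken from GENCODE M21 by identifier (98.8% of 45706 genes). The fit used edgeR 4.0.16 in R 4.3.3, with TMM scaling, filterByExpr (15184 genes), the quasi-likelihood test with genotype as the only term, and Benjamini-Hochberg adjustment over all genes tested, with a threshold of 0.05. SE was the absolute log2 fold change over the square root of F. CPM are TMM-scaled, and log2 CPM used a prior count of 2. Library series were read from the library numbers in the table header, which form 2 groups of 3, each with both genotypes. The first held AI03 (Ctrl) with AI02 and AI55 (cKO), and the second held AI54 and AI56 (Ctrl) with AH74 (cKO). A test of 3 against 3 by exact permutation cannot go below p = 0.1 and was not used. Each library is 1 mouse.

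The members and lists were chosen with earlier results of these data known. Named genes were all members, Setd1b, up to 4 of each list with the smallest adjusted p, the most abundant and absent markers, and the 3 genes most like each of 3 members. Genes beyond this rule (among them Ikzf4, Id4, Bach2, Foxo1, Lyl1, Cbfa2t3, Rag1, Notch1, Smad7, Gzma, Klrb1c, Prf1 and markers near 0) were named after their values were seen. Some listed genes are counted with their list but not reported here by name. Alternatives were DESeq2 1.42.0, its size factors, other filters, the series as a covariate, removal of length or GC trends, removal of abundant genes, and leaving out each library. The edgeR step was tested on simulated data, where it recovered 68% of 200 changed genes and made 10 false calls.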

Additional observations from a re-analysis of the deposited data

How the results depend on the processing

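None of the 9 tested members passed the threshold under any of the alternatives run, including DESeq2 and each library left out in turn. Over all genes, 1164 passed; the count was 513 at an adjusted p under 0.01, and 604 to 1125 with 1 library left out (665 without AI56, 604 without AI55 and 739 without AH74). With the length trend removed, 1377 genes passed and 846 of them were lower, against 575 of 1164. Members without overlap numbered 2 to 4 with 1 library left out (4 without AI56 and 4 without AI55), where 35.4 to 40.3% of all genes tested did not overlap. Signs turned only for members near 0 or of low counts. Id1 was at 0.33 with the series as a covariate and between -0.49 and 0.28 with 1 library left out. Ikzf2 was at -0.051 with the length trend removed, at -0.0017 with the GC trend removed and between -0.045 and 0.13 with 1 library left out, and Tcf4 was between -0.073 and 0.070 with 1 library left out and at -0.20 with the length trend removed. The same alternatives were applied to the other lists after the data were seen. Lower target genes numbered 3 to 6 and lower lymphoid factors 1 to 3 with 1 library left out, and the latter numbered 7 with the length trend removed. Higher BMP and TGF-beta genes numbered 1 to 3 with 1 library left out, 2 with the series as a covariate and 2 with the length trend removed. Higher HSC markers numbered 7 to 9 throughout. The cause of these changes was not tested. No paired analysis was possible because the labels number no replicates and do not say which mice share a litter. Depth limits Id1, Id3 and Ikzf3, whose counts were at most 39 in any library.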
